A study of Mus musculus with 7 samples.

Results

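Globin and erythroid genes were followed across a comparison of 2 embryonic tissues of the mouse limb. The set held 9 genes, chosen by name: the globins Hba-a1, Hba-x, Hbb-y, Hbb-bh1 and Hbb-b1, and the erythroid genes Alas2, Klf1, Gata1 and Slc4a1. They were measured by 10 of the 55681 non-control probes of the array, because Hbb-y had a pair of probes, and all 9 were among the 20828 genes tested. One group was the AER, or apical ectodermal ridge, a strip of signalling epithelium along the distal edge of the limb bud, microdissected from forelimbs of C57/Bl6 embryos at embryonic day 11.5 (3 arrays). The comparison group, labelled Ectoderm, was surface ectoderm from posterior limb of embryos of the same strain and age (4 arrays). Each replicate was a pool from 2 to 3 mice, and no treatment or transgene was recorded for either group. Total RNA was labelled with a single dye, Cy3, and hybridised to 1 Agilent array per replicate.

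Hemoglobin is a tetramer of alpha-like and beta-like globin chains that carries oxygen in red cells. The genes of each chain type lie side by side in the genome, with embryonic-type genes ahead of adult-type ones. The first red cells arise in the yolk sac and circulate at midgestation while still nucleated. They use embryonic-type genes, which later red cells replace with adult-type ones. In the mouse, Hbb-y and Hbb-bh1 are embryonic beta-like genes, Hba-x is the embryonic alpha-like gene, and Hbb-b1 and Hba-a1 are adult-type genes, of which the alpha gene is also active in embryonic red cells. The transcription factors Gata1 and Klf1 drive erythroid genes through GATA and CACCC elements, Alas2 makes the first and limiting step of erythroid haem synthesis, and Slc4a1 is the anion exchanger band 3 of the red cell membrane.

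The probes are shown first, because on an array the probe decides which transcript is read. The 3 sequences below are 60-base probes of an embryonic beta-like gene, the embryonic alpha-like gene and the adult-type alpha gene, as the scanner files give them, with no part in capitals.
Hbb-y probe, mm9 chr7:111000448-111000507, minus strand: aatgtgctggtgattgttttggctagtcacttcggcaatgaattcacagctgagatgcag
Hba-x probe, mm9 chr11:32177668-32177727, plus strand: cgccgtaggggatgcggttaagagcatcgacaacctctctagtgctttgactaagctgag
Hba-a1 probe, mm9 chr11:32183955-32184014, plus strand: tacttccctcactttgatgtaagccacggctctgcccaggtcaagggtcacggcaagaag
The files list accessions of both Hba-a1 and its near-identical copy Hba-a2 for the last of these, so its signal belongs to the adult-type alpha genes together. The probe of Hbb-b1 lies at mm9 chr7:110961105-110961164 on the minus strand, and its accession now carries the symbol Hbb-bt in RefSeq. The Hbb-bh1 probe lies at chr7:110990209-110990268 and the second Hbb-y probe at chr7:111000268-111000327. The other members were read at chrX:147004993-147005052 (Alas2), chr8:87428881-87428940 (Klf1), chrX:7536392-7536451 (Gata1) and chr11:102210256-102210315 (Slc4a1). Adult-type globin genes are close copies of each other, so cross-hybridisation between copies cannot be told apart from their own signal.

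The DNA before the start sites of members is shown with the core letters bound by the GATA and CACCC factor families. Any relation of these letters to the variation of members between arrays was not tested. RefSeq promoters (build GRCm38.p6) matched 7 of the 9 members, Hbb-b1 through its accession under the symbol Hbb-bt; Hbb-bh1 and Slc4a1 had no entry. The 250 bases before the start are printed 5′ to 3′ on the gene's strand, with GATAA and CACCC in capitals, read on both strands, so that TTATC and GGGTG mark the same letters on the other strand.
Hbb-y, chr7:103853208-103853457, minus strand: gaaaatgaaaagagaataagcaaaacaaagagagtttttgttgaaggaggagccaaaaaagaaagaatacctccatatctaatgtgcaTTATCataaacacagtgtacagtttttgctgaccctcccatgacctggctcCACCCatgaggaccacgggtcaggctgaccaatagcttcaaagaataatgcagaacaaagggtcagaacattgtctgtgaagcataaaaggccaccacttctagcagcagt
Hba-x, chr11:32276350-32276599, plus strand: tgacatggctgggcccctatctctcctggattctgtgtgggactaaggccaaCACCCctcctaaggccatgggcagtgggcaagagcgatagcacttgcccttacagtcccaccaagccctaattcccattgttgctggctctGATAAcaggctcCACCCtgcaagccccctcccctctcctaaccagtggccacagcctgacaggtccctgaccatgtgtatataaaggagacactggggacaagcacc
Hba-a1, chr11:32283422-32283671, plus strand: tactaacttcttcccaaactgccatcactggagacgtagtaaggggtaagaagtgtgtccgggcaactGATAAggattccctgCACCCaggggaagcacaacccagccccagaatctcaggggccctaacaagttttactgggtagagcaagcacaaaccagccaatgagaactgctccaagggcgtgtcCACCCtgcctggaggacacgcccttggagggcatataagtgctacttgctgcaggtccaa
Hbb-b1 (Hbb-bt), chr7:103813924-103814173, minus strand: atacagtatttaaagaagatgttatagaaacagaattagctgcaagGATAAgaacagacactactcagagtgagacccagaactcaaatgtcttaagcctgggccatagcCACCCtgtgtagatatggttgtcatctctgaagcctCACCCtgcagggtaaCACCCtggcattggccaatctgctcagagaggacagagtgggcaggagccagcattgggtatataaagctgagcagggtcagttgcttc
Alas2, chrX:150547167-150547416, plus strand: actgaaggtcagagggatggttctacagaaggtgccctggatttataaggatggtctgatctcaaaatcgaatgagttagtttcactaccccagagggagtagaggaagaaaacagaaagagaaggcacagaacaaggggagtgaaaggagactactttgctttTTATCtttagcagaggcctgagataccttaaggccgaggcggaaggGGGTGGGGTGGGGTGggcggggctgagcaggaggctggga
GATAA stood in 6 of the 7 windows, with Gata1 as the exception, against 22.6% of all 32851 RefSeq promoters over the same length. CACCC stood in 7 of 7, against 52.0% of all promoters. Both stood in 6 of 7, against 10.1% of all promoters. The copies in Alas2 form a run of 3 CACCC motifs on the opposite strand. A match describes these letters and does not show that a factor binds there.

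The 7 arrays were comparable in depth of signal, with differences that touch the globins. The 75th percentile of the non-control signal, to which each array was scaled, ran from 257 to 563 scanner units, and between 47.6% and 54.2% of probes were well above background. AER 2 had the highest value of both. Ridge markers fitted the AER label, with 8 of 8 higher there (limma, adjusted p under 0.05). The markers went partly against the label of the other group: surface ectoderm is an epithelium, yet 9 of 10 epithelial markers were lower and 8 of 10 limb mesenchyme markers higher in it than in the AER. The epithelial genes Epcam and Cdh1 were above background on all 4 Ectoderm arrays, and so were the mesenchyme genes Lum (mean log2 level 5.13 against -2.96 in the AER) and Meox2 (5.81 against -0.73). The group is called Ectoderm here as the name of its label. Summed mesenchyme markers were 423 to 607 times the 75th percentile in the Ectoderm arrays against 203 to 235 in the AER, and summed epithelial markers 60.7 to 93.1 against 146 to 168. The part of this difference in tissue makeup in the members' values was not tested. Ectoderm 3 stood apart in its group: its summed ridge markers reached 49.3 times the 75th percentile, against 23.9 to 24.5 in the other Ectoderm arrays and 254 to 347 in the AER. The Hbb-b1 difference and the beta-like ratio are given with and without this array, and both were larger in size without it. Ectoderm 2 and 4, whose scanner output carries a shared number in its names, were the closest pair of the group, with a median absolute difference of 0.148 on the log2 scale over genes against 0.191 to 0.269 for the other pairs. They were counted as 2 samples. Where nothing states that pools were independent litters, p-values measure the spread between these arrays.

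Erythroid transcripts were present in every sample of both tissues. All 10 probes were well above background on all 7 arrays, none was saturated, and the 6 globin probes lay among the 839 brightest of 55681 on every array. The brightest was the first Hbb-y probe, between 397764 and 650184 scanner units, and the dimmest was Klf1, between 75.5 and 338. Brightness depends on the probe, so levels are compared between arrays and not between genes. In bulk RNA, fewer erythroid cells and less RNA per cell cannot be told apart.

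**Figure D1:**
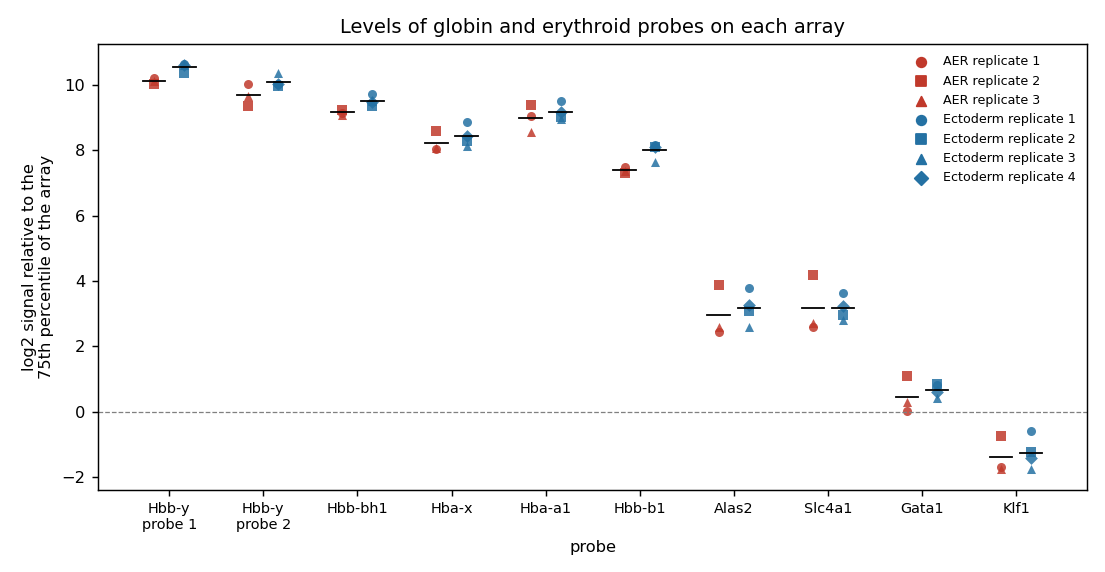
Signal of the 10 probes on each array, as log2 of the signal over the array's 75th percentile (dashed line at 0), with AER arrays in red, Ectoderm arrays in blue and group means as black bars. The AER points lie below all Ectoderm points for the first Hbb-y probe, Hbb-bh1 and Hbb-b1, and AER 2 (red square) is the highest of all arrays for Alas2, Slc4a1 and Gata1; heights of different probes are not comparable.

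Between the tissues few erythroid genes passed the test. Of the 9 members, 1 passed the test, Hbb-b1, which was lower in the AER, and none was higher. Over all genes tested 15.7% were called, 7.03% higher and 8.65% lower, so 1 of 9 is near the background share. The log2 difference, AER minus ectoderm, was below 0 for 8 of the 9, with a median of -0.21 against -0.08 over all genes. This tally depended on the scaling: 5 of 9 were below 0 under quantile normalization (median -0.02) and 3 of 9 in the authors' processed values (median 0.09). The groups did not overlap for 3 of the 9 members (33.3%), against 30.3% of all genes. The single call depended on the processing and on the arrays included, as given with that gene.

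**Figure D2:**
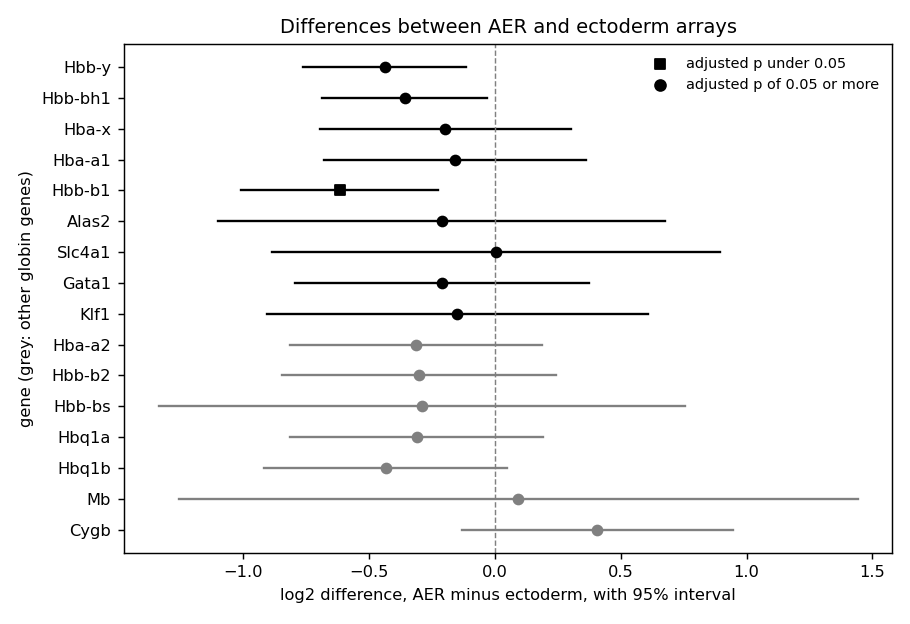
Log2 difference between AER and Ectoderm arrays for the 9 members (black) and the 7 other globin genes tested (grey), with 95% intervals from limma. Hbb-b1 is the one gene of the plot with an adjusted p under 0.05 (square), and 13 of the 16 estimates lie below 0; Slc4a1, Mb and Cygb lie above. Signs of several members turn under other scalings.

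Of the embryonic beta-like genes, Hbb-y encodes the epsilon-y chain of embryonic hemoglobin. Its first probe read 1178, 1035 and 1105 times the 75th percentile in AER 1, 2 and 3, and 1588, 1314, 1549.8 and 1550.3 times in Ectoderm 1 to 4. Every AER array lay below every Ectoderm array, and the spread within groups was small, at percentile 6.47 of all genes. The fitted difference was -0.44 on the log2 scale (SE 0.14, 95% interval -0.76 to -0.12), a 0.738-fold level, with limma's adjusted p = 0.0722. It was -0.02 under quantile normalization (adjusted p = 0.9499) and 0.0384 in the authors' processed values (adjusted p = 0.901). The second Hbb-y probe gave 1043, 651 and 809 times the 75th percentile in the AER and 1041, 993, 1333 and 1042 times in the Ectoderm. Here AER 1 fell among the Ectoderm arrays, so the groups overlapped, while the estimate was similar at -0.42 (SE 0.20, limma adjusted p = 0.196 over all probes). Both probes were lowest in AER 2. In that fit of every probe, 1 of the 10 member probes was called, that of Hbb-b1, against 15% of all probes.

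Hbb-bh1, which encodes the other embryonic beta-like chain, read 564, 606 and 545 times the 75th percentile in the AER. The Ectoderm arrays read 837, 660.1, 731 and 714 times. The groups did not overlap, with the AER below. The difference of -0.36 (SE 0.14, 95% interval -0.69 to -0.03) had limma's adjusted p = 0.132. In the authors' processed values it was 0.17 (adjusted p = 0.667).

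Hbb-b1, the adult-type beta gene, was the member with the largest difference. It read 181, 158 and 165 times the 75th percentile in AER 1 to 3 and 289, 277, 199.9 and 275 times in Ectoderm 1 to 4. All AER arrays lay below all Ectoderm arrays, and Ectoderm 3 was the nearest to them. In scanner units, before scaling, the AER arrays gave 61558, 89194 and 64918 and the Ectoderm arrays 118379, 123014, 51312 and 94773, so that Ectoderm 3, the array with the lowest 75th percentile, was then the lowest of all. The scaled level in the AER was 0.652 times that in the Ectoderm (95% interval 0.497 to 0.854), a log2 difference of -0.62 (SE 0.17), with limma's adjusted p = 0.0427. Without Ectoderm 3 the difference was -0.74 (adjusted p = 0.0160). Leaving out any one of the other 6 arrays (AER 1, 2 or 3, Ectoderm 1, 2 or 4) ended the call, with adjusted p from 0.0645 to 0.122 and differences from -0.67 to -0.56. The call was also lost under quantile normalization (-0.25, adjusted p = 0.476) and in the authors' processed values (-0.47, adjusted p = 0.144). With Ectoderm 2 and 4 averaged as 1 sample it was -0.58 (adjusted p = 0.113).

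The alpha-like genes showed no such separation. Hba-x, the embryonic zeta-type gene, read 264, 385 and 269.8 times the 75th percentile in the AER and 462, 315, 281 and 349.7 times in the Ectoderm. AER 2 lay above 3 of the 4 Ectoderm arrays, and the other AER arrays lay below all 4. The difference was -0.20 (SE 0.22, 95% interval -0.70 to 0.30, limma adjusted p = 0.570). Its sign turned in the authors' processed values, to 0.35 (adjusted p = 0.485).

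Hba-a1, the adult-type alpha gene, read 524, 675 and 377 times the 75th percentile in the AER. It read 722, 520.5, 493 and 574 times in the Ectoderm. AER 2 was second only to Ectoderm 1, and AER 3 was the lowest of the 7. The difference was -0.16 (SE 0.23, 95% interval -0.68 to 0.36, limma adjusted p = 0.664). With background correction of the mean signal in place of the scanner's processed signal it was called lower (-0.60, limma adjusted p = 0.0461), and under quantile normalization its sign turned, to 0.24 (adjusted p = 0.711).

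The 4 other erythroid genes varied more within groups than most genes, so the arrays leave a wide range for any difference. Alas2, the haem synthesis enzyme, read 5.41, 14.7 and 6.01 times the 75th percentile in the AER and 13.8, 8.52, 5.996 and 9.52 times in the Ectoderm. AER 2 was the highest array and AER 1 the lowest, so the AER spanned the whole range. In the authors' processed values Ectoderm 1 was the highest instead (12.4, against 11.9 in AER 2), and AER 1 was again the lowest. The difference was -0.21 (95% interval -1.10 to 0.68, limma adjusted p = 0.743).

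Slc4a1, the band 3 anion exchanger, read 6.01, 18.3 and 6.56 times the 75th percentile in the AER. The Ectoderm arrays read 12.5, 7.85, 6.94 and 9.37 times. AER 2 stood 2.91-fold above the mean of the other 2 AER arrays, which were the lowest of the 7. The difference was 0.01 (95% interval -0.89 to 0.90, limma adjusted p = 0.994), and without AER 2 it was -0.51 (adjusted p = 0.213). The Slc4a1 and Alas2 spreads within groups lay at percentiles 93.9 and 93.8 of all genes.

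Gata1, the erythroid GATA factor, read 1.00, 2.12 and 1.23 times the 75th percentile in the AER and 1.75, 1.80, 1.345 and 1.53 times in the Ectoderm. AER 2 was again the highest and the other AER arrays the lowest. The difference was -0.21 (95% interval -0.80 to 0.38, limma adjusted p = 0.608).

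Klf1, the CACCC-binding factor, read 0.307, 0.601 and 0.294 times the 75th percentile in the AER. In the Ectoderm it read 0.658, 0.426, 0.294 and 0.376 times. AER 2 and Ectoderm 1 were the highest pair, and AER 3 and Ectoderm 3 read alike at the bottom. The difference was -0.15 (95% interval -0.91 to 0.61, limma adjusted p = 0.792).

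Read by array, the members split into 2 patterns. Ectoderm 1 was the highest array for 6 of the 9 and AER 2 for the other 3, against 19.3% of all genes highest in AER 2. As scaled here, the lowest array was an AER array for all 9 (AER 1 for 4, AER 3 for 3, AER 2 for 2). The share of all genes lowest in an AER array was not counted. In AER 2, Slc4a1 stood 1.03 above its own 7-array mean on the log2 scale, Alas2 0.79, Klf1 0.58, Gata1 0.50, Hba-a1 0.31 and Hba-x 0.24. In the same array Hbb-b1 was -0.44, Hbb-y -0.34 and Hbb-bh1 -0.12 from their means. The 3 beta-like members were thus below their means in all 3 AER arrays, and the alpha-like and other members were high in AER 2. All 9 were above their means in Ectoderm 1. Relative to the mean of AER 1 and AER 3, AER 2 stood at 0.907-fold and 0.709-fold for the Hbb-y probes, 0.917 for Hbb-b1 and 1.09 for Hbb-bh1. For the other bright members it was 1.44 (Hba-x) and 1.52 (Hba-a1). For the dimmer members it ran from 1.91 (Gata1) to 2.91 (Slc4a1). The part of probe brightness in this split was not tested. The split did not follow chain type over other globin probes: the beta-like Hbb-bs was highest in AER 2 and Hbb-b2 second highest there, and the alpha-like Hba-a2 was lowest there. This order depended on the scaling. Under quantile normalization AER 2 was the highest array for 7 of 9 members, and no member separated the groups. Ectoderm 3 was then the lowest array for 6 of 9, and for 5 of 9 in the authors' processed values.

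**Figure D3:**
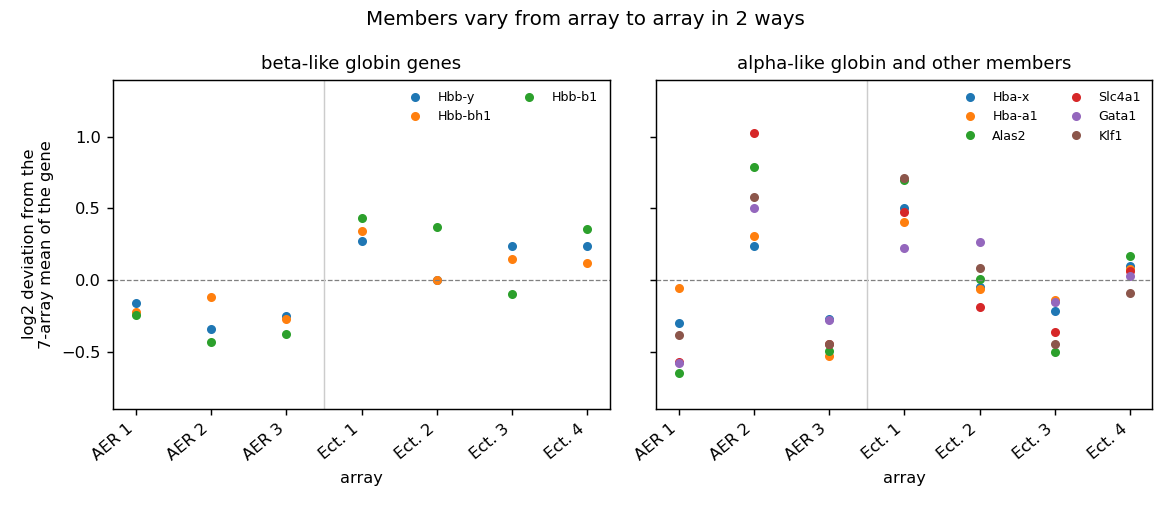
Log2 deviation of each member from its own mean over the 7 arrays, with beta-like globin genes in the left panel and the other members in the right panel. The beta-like genes are below 0 in all 3 AER arrays, whereas in AER 2 the 6 other members are between 0.24 and 1.03 above 0.

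The correlation of each member with the mean of the other 8 over the 7 arrays describes the same split. It was 0.97 for Hba-x, 0.93 for Alas2, 0.91 for Klf1, 0.86 for Hba-a1, 0.82 for Gata1 and 0.79 for Slc4a1. It was 0.65 for Hbb-bh1, 0.42 for Hbb-b1 and 0.25 for Hbb-y. The members share the scaling of each array, so these values describe 7 points.

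AER 2 also stood apart in other measures. Its 75th percentile was the highest, at 563 units, and 54.2% of its probes were above background. The spread between the spots of probes printed 10 times was 0.219 on the log2 scale in AER 2 and 0.226 in AER 1, against 0.079 to 0.092 in the other 5 arrays. AER 1 had a similar spot spread without the high erythroid level, and Ectoderm 1, the other high array, had a 75th percentile of 409 units, 49.9% of probes above background and a spot spread of 0.085. The part of these values in the result was not tested.

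The embryonic to adult ratio was read within each array, where scaling cancels. Probes differ in brightness, so each ratio is given relative to its own mean over the 7 arrays, as log2, as a description with no test. An exact permutation test of 3 against 4 arrays could not go below a two-sided p of 0.0571. The beta-like ratio, the mean of Hbb-y and Hbb-bh1 over Hbb-b1, was 0.06, 0.20 and 0.11 in AER 1 to 3 and -0.12, -0.37, 0.29 and -0.18 in Ectoderm 1 to 4. The AER arrays lay above 3 of the 4 Ectoderm arrays and below Ectoderm 3. The mean difference was 0.22, with an SD within groups of 0.22. It was 0.35 without Ectoderm 3, when all AER arrays exceeded the remaining Ectoderm arrays, and 0.13 without Ectoderm 2. Other adult-type beta probes moved it to the other sign: with Hbb-b2 in place of Hbb-b1 it was -0.10, and with Hbb-bs -0.11. These probes were much dimmer, at 1861 to 5943 units (Hbb-b2) and 187 to 1193 (Hbb-bs), against 51312 to 123014 for Hbb-b1. The Hbb-bs spread within groups lay at percentile 96.6 of all genes. The Hbb-b2 probe had no mapped position on mm9, so which gene copy it read is uncertain.

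The alpha-like ratio, Hba-x over Hba-a1, was -0.25, -0.07 and 0.26 in the AER and 0.10, 0.01, -0.07 and 0.02 in the Ectoderm. The AER arrays spread on both sides of the Ectoderm arrays, and the mean difference was -0.04. With the Hba-a2 probe in place of Hba-a1 it was 0.12. Leaving out single arrays gave -0.18 (without AER 3) to 0.08 (without AER 1). The ratio of the adult-type genes to each other, Hbb-b1 over Hba-a1, was -0.19, -0.75 and 0.15 in the AER and 0.03, 0.44, 0.04 and 0.28 in the Ectoderm. This pair, which has no embryonic gene in it, differed by -0.46 on average and by -0.22 without AER 2. It spanned 1.18 over the 7 arrays, against 0.66 for the beta-like ratio and 0.50 for the alpha-like ratio, or 1.44 for the alpha-like ratio with the Hba-a2 probe.

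These ratios depended on a correction that the scanner software makes for uneven signal across the array surface. The software divides each spot by a smooth factor, here called the detrending factor. On 5 arrays it stayed close to 1, with its 5th and 95th percentiles between 0.850 and 1.17. On AER 1 it ran from 0.562 to 1.32 between those percentiles, and on AER 2 from 0.574 to 1.34. Both arrays lie in the first column of the slide. At the Hba-a1 spot the factor was 0.569 on AER 1 and 0.545 on AER 2, against 0.933 to 0.959 on the other arrays. At the Hbb-b1 spot it was 0.720 and 0.737, against 0.915 to 0.9497. At the Hba-x spot it was 1.11 on both, and at the first Hbb-y spot 1.09 and 1.12, against 0.919 to 0.934 on the rest. At the Alas2 spot it was 0.721 on AER 1 and 0.628 on AER 2, against 1.02 to 1.05 on the rest. On AER 1 and AER 2 the correction thus raised the Hba-a1, Hbb-b1 and Alas2 probes and lowered those of Hba-x, Hbb-y and Hbb-bh1. It also lowered the adult-type probes of Hbb-b2 (factors 1.03 and 1.06) and Hbb-bs (1.04 and 1.05).

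**Figure D4:**
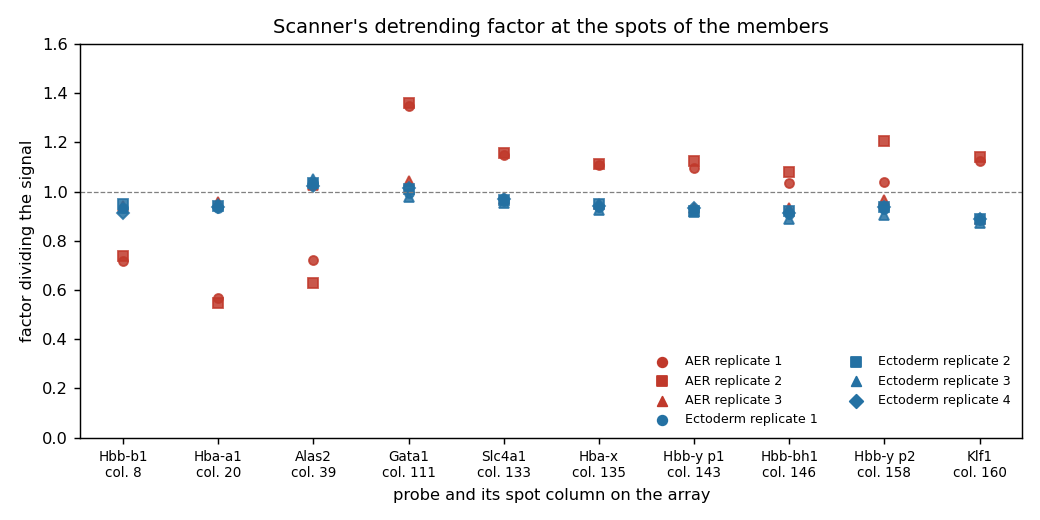
Detrending factor by which the scanner software divided the signal at each member's spot, with AER arrays in red and Ectoderm arrays in blue and spots ordered by their column on the array (Hbb-y p1 and p2 are its first and second probes). AER 1 (red circle) and AER 2 (red square) lie apart from the other arrays at every member, from 0.545 at Hba-a1 to 1.36 at Gata1, and the other 5 arrays stay between 0.871 and 1.05.

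The authors' processed values matched background-corrected mean signals, to which this factor had not been applied. In them the alpha-like ratio was 0.44, 0.63 and 0.02 in AER 1 to 3 and -0.22, -0.31, -0.28 and -0.29 in Ectoderm 1 to 4, so that the groups did not overlap and the AER was higher by 0.64 on average. The beta-like ratio rose to a difference of 0.57 in the same values. AER 3, whose factor was near 1 throughout, gave the smallest of the AER arrays for both ratios in these values. Its alpha-like ratio of 0.02 still lay above all Ectoderm arrays, as did its 0.26 after detrending. Its beta-like ratio of -0.12 in the authors' values lay below that of Ectoderm 3 (-0.05). Background-corrected mean signals gave 0.62 for both ratios, and dividing those signals by the factor returned the differences to 0.22 and -0.04. Spots of other probes were also read before and after the correction. These were 76 probes printed 10 or more times, read at the 639 of their spots that were bright on all arrays. Their median spread between spots was 0.340 on AER 1 and 0.353 on AER 2 before the correction. After it the spread was 0.147 on both, against 0.041 to 0.045 on the other 5 arrays. The factor smooths the signal of these same arrays, so a smaller spread after it is no independent check of the factor.

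**Figure D5:**
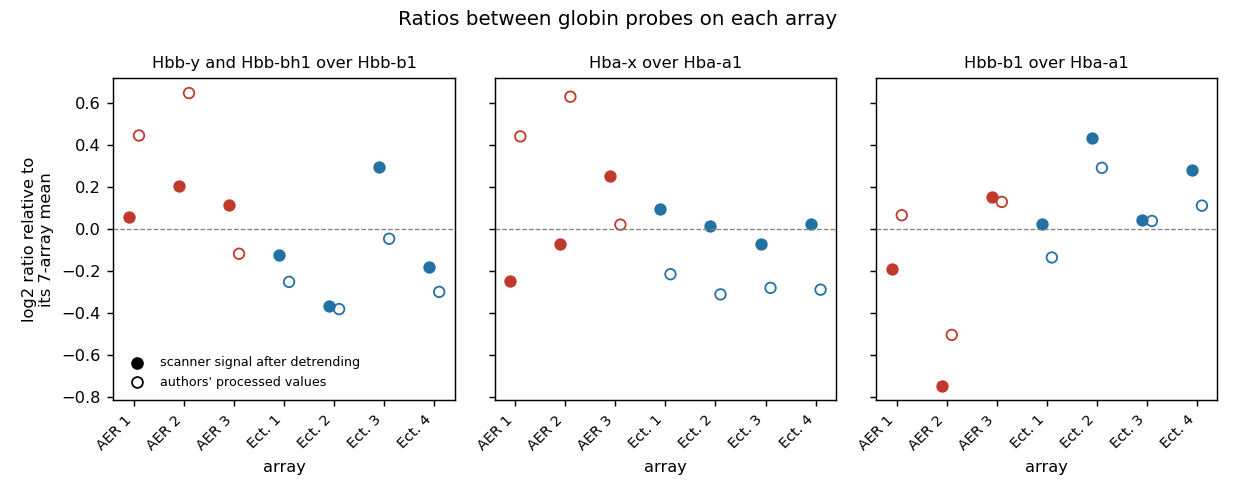
Log2 ratio between globin probes on each array relative to its mean over the 7 arrays, from scanner signals after detrending (filled) and from the authors' processed values (open), with AER arrays in red and Ectoderm arrays in blue. In the middle panel the open AER points lie above all open Ectoderm points, whereas the filled ones overlap them.

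Other globin genes were read beside the members. Of the 7 tested, none passed the test, beside 15.7% of all genes. The difference was below 0 for 5 of them, with a median of -0.30 against -0.08 over all genes. Hba-a2, the copy of Hba-a1, was read by a probe of its own at 1400, 752 and 1060.0 times the 75th percentile in the AER and 1263, 1118, 1413 and 1379 times in the Ectoderm. It was lowest in AER 2, where Hba-a1 was second highest, so the 2 alpha probes went opposite ways on that array. The Hbb-b2 probe, named for the minor adult-type beta gene, differed by -0.30 (limma adjusted p = 0.418) and correlated at 0.95 with the mean profile of the members. It had no mapped position on mm9, so which beta-like copy or copies gave its signal is uncertain.

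In the pathways around hemoglobin few genes were called, beside 15.7% of all genes tested. The median difference over all genes was -0.08, and no difference between a list and this background was tested. Of 16 genes of haem synthesis and breakdown, none was higher and 1 was lower in the AER, Tmem14c, which carries a haem precursor into mitochondria (-0.53, SE 0.14, limma adjusted p = 0.0394), and the median was -0.22. Of 12 genes of iron uptake and storage and 19 of the red cell membrane and skeleton, none passed in either direction, with medians of -0.04 and -0.05. Of 15 genes of red cell maturation, 1 was higher, Cited4, a transcriptional cofactor (1.43, SE 0.19, limma adjusted p = 0.00131), and none was lower. Ahsp, which stabilises free alpha chains, differed by -0.32 (adjusted p = 0.526).

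Of 15 other transcription factors of red cells and their precursors, 4 were higher and 1 was lower in the AER, beside 7.03% and 8.65% of all genes; the difference between list and background was not tested. Lmo2, a bridging protein of the erythroid factor complex, was 8.87-fold higher in the AER (log2 3.15, SE 0.34, limma adjusted p = 0.000415). Its log2 level was 4.36 to 4.50 in the AER and 0.81, 1.00, 2.29 and 0.97 in Ectoderm 1 to 4, highest there in Ectoderm 3, the array with the highest ridge markers of its group. Runx1, a blood stem cell factor, was 2.28-fold higher (log2 1.19, SE 0.29, adjusted p = 0.0275). The partners Tal1 and Gfi1b differed by 0.18 (adjusted p = 0.784) and -0.23 (adjusted p = 0.527). In AER 2 Tal1 read 1.44 on the log2 scale against 0.00 and -0.11 in the other AER arrays. The highest array was AER 2 for 9 of these 15 factors, against 19.3% of all genes, and the median correlation of 14 of them with the mean member profile was 0.31, from -0.61 to 0.85.

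Markers of other blood and vessel cells were examined beside the erythroid genes, with 15.7% of all genes called as the background share. Of 14 endothelial markers 1 was lower in the AER, Sox18, an endothelial transcription factor (-0.66, limma adjusted p = 0.0136), and none was higher. None of 12 macrophage or 9 megakaryocyte markers passed in either direction. Summed endothelial markers ran from 46.4 to 61.8 times the 75th percentile in the AER and from 42.8 to 57.7 times in the Ectoderm. They were lowest in Ectoderm 1, where most members were highest, and their median correlation with the mean member profile was -0.07 over the 7 arrays. Summed macrophage markers ran from 14.95 to 23.8 times in the AER and from 17.1 to 22.7 times in the Ectoderm, and summed megakaryocyte markers from 21.9 to 24.0 and from 17.2 to 32.6 times. No defining marker list was at 0, and the part of these cells in the members' levels was not tested.

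Among 18046 genes above background on all arrays, those most like the mean profile of the members were found by Pearson's r over the 7 arrays. They were Foxo4 (0.99), Cldn13 (0.98), Trim45 (0.98), Slf2 (0.98) and an unnamed noncoding RNA locus of the array design (0.97). Cldn13 encodes a claudin, Foxo4 a forkhead factor and Trim45 a ring finger protein. Foxo4 read -3.07, -2.13 and -3.04 in AER 1 to 3 and -1.98, -2.37, -2.65 and -2.36 in Ectoderm 1 to 4 on the log2 scale. It was highest in Ectoderm 1 and AER 2, whereas the beta-like members were below their own means in AER 2. Of these candidates 15 exceeded 0.95, with Ahsp at rank 9 and the red cell surface gene Icam4 at rank 15.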

How the data were processed

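The members and all gene lists were chosen with earlier results of these data known. The authors deposited 1 scanner table per array, of intensity values from Agilent Feature Extraction 10.7.3.1 per the file headers, and a table of log2 values; the submitters' processing notes name limma with no version. The deposited log2 table matched normexp-corrected mean signals after quantile normalization in every member's value and count given here. The scanner's processed signal (background-subtracted and detrended, per the file headers) was used as log2 minus the 75th percentile of each array's non-control probes. Of 55681 probes, 28282 that were well above background on at least 3 of 7 arrays were kept, with 1 probe per gene, the brightest on average, giving 20828 genes. limma 3.58.1 in R 4.3.3 fitted 3 AER against 4 Ectoderm arrays, two-sided, with Benjamini-Hochberg adjustment over all genes and a threshold of 0.05; fits were tested on simulated data. The number of arrays limits the precision. Gene symbols follow the files, updated by RefSeq accession. Genes named outside the members were up to 2 called genes per list with the largest difference and the 5 genes most like the members; other genes were named after their values were seen. Alternatives were other background corrections, scalings, filters, probe choices, slide row, replicate number and single arrays left out; detrending and other globin probes were added after seeing the data. Replicate numbers are shared by both groups but did not pair the arrays.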

Additional observations from a re-analysis of the deposited data

Results flagged for a closer look

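In the Ectoderm group of 4 arrays, 2 member levels had 1 array far from the other 3, by the gap to the nearest array as a share of the group's range. The log2 level of Hbb-y in Ectoderm 2 was 10.36, below the other 3 arrays, with the gap at 0.870 of the range. The log2 level of Hbb-b1 in Ectoderm 3 was 7.64, also below the others, with the gap at 0.859 of the range. Chance flags about 1 in 20 groups, and 12 groups of values were examined. No explanation was tested.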

How the results depend on the processing

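Of the 9 members, 1 was called as reported, 2 (Hba-a1 and Hbb-b1) with normexp and the 75th percentile, 9 with centring on epithelial markers, and 0 with quantile normalization with or without normexp, in the authors' values, with the 75th percentile taken over detected probes, with no filter, with Ectoderm 2 and 4 averaged, with slide row as a block and within slide rows 1 and 2. Leaving out single arrays gave 0 to 1. Centring on epithelial markers moved the median of all genes to -1.70 by construction and called 19878 genes, with Slc4a1 at -1.61. Genes called ran from 2199 to 3275 with single arrays left out, and were 651 within slide row 1 and 1390 within row 2, which hold fewer arrays; probes called ran from 2826 to 4216. With the replicate number as a block, which did not pair the arrays (same-number correlations -0.05, 0.20 and 0.13), 2442 genes and 0 members were called, and Hbb-b1 was -0.59 (adjusted p = 0.147). The share of calls that were higher in the AER was 44.8% as reported, 57.4% with the percentile over detected probes, 53.0% with quantile normalization and 1.10% with epithelial centring.

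Hbb-b1 was below 0 in all 22 alternatives and called in 6. Signs turned for other members. With normexp and the 75th percentile Hba-x was 0.0292, Klf1 0.0638 and Gata1 0.14. With quantile normalization Hba-a1 was 0.24, Hba-x 0.20 and Hbb-bh1 0.00428. In the authors' values, equal to normexp with quantile normalization, Hba-x was 0.35, Hbb-y 0.0384, Hbb-bh1 0.17, Klf1 0.0879 and Gata1 0.14. Within slide row 2 Klf1 was 0.16 and Gata1 0.0819. Slc4a1 was -0.0144 with Ectoderm 2 and 4 averaged, -0.18 with slide row as a block and -0.55 within row 1. With single arrays left out, Hba-a1 ran from -0.36 to 0.0588, Alas2 from -0.67 to 0.0530, Klf1 from -0.48 to 0.0672, Gata1 from -0.52 to 0.0186 and Slc4a1 from -0.51 to 0.29. The beta-like ratio moved to 0.62 with normexp and the 75th percentile, 0.57 with normexp and quantile normalization and in the authors' values, -0.11 with the Hbb-bs probe and -0.10 with the Hbb-b2 probe. The alpha-like ratio moved to 0.62, 0.64 and 0.64 in the first 3 of these, and to -0.26 within slide row 1. Apart from detrending, the cause of these changes was not tested. No comparison of limits was made; Klf1 was the dimmest member, at 75.5 to 338 units.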
